A study of Mus musculus with 4 samples.

Results

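The cytosolic ribosomal protein genes were taken as the protein-coding gene rows whose symbol is Rpl or Rps followed by digits, with an optional letter, digit and final l, plus Rplp0, Rplp1, Rplp2, Rpsa and Rps27a. The rule used gene names only. It found 85 genes among 45777 gene rows, 21949 of them protein-coding, and 53 of the 85 encode proteins of the large (60S) subunit and 32 of the small (40S) subunit. Total RNA from 4 mouse gastric organoid libraries was sequenced with a stranded kit that depletes ribosomal RNA. Organoids are epithelial cultures grown as small three-dimensional bodies. All 4 libraries come from organoids without Cdh1, which encodes the epithelial adhesion protein E-cadherin, and without Trp53, which encodes the tumour suppressor p53. The 2 Control libraries (lines CPE and CPG) carry these deletions alone. The 2 Smad4 Knockout libraries (lines CPS1 and CPS4) lack Smad4 as well, which encodes the shared signal transducer of the TGF-beta and BMP pathways. Every culture spent its last 2 days in a medium with B27 and N2 and without serum or the Wnt-conditioned supernatant used for growth. Each library is 1 line. Neither the animals behind the lines nor the way the genes were deleted is stated in the labels. The p-values below therefore measure only the spread between these libraries.

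A ribosome joins 1 copy of most of its proteins to ribosomal RNA, so cells make these proteins in matched amounts from messenger RNAs that are among their most abundant. In mammals most of these messenger RNAs start with a C followed by a run of pyrimidines, the 5′ terminal oligopyrimidine tract, through which mTOR signalling and the RNA-binding protein LARP1 set their translation. MYC is a known activator of their transcription. The gastric epithelium renews quickly and its dividing cells need a high ribosome output.

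Start sites are shown here because the tract is a feature these messenger RNAs are known for and the rule that chose the genes did not use it. RefSeq (GRCm38.p6) held a promoter entry of 300 bases, 250 before and 50 after the annotated gene start, for 65 of the 85 genes. A total of 10 genes had more than 1 entry, and a gene was counted once where any entry held the feature. An annotated start in a tract was counted where the start base is C and at least 4 further pyrimidines follow. Of the 65, 14 genes (21.5%) had such a start, against 394 of the 12804 tested genes with an entry (3.08%). An annotated gene start can lie some bases from the start that the cells use, so a start outside a tract says only that the tract is not at that base. The windows below hold 30 bases, 15 on each side of the boundary before the start, on the gene's strand from 5′ to 3′, and the capitals mark the tract from the start base onward. They are Rpl15 at chr14:18270972-18271001 (minus strand), with the longest tract of the 14 at 13 bases, Rpl35 at chr2:39005117-39005146 (minus), Rps6 at chr4:86857353-86857382 (minus), Rpl38 at chr11:114668565-114668594 (plus), Rps18 at chr17:33955651-33955680 (minus), Rps15a at chr7:118116133-118116162 (minus), Rps27 at chr3:90213634-90213663 (minus) and Rplp2 at chr7:141447636-141447665 (plus), with the shortest shown at 5 bases. The start of 12 of the 14 windows is the outermost start of the gene, while the Rpl38 entry starts 762 bases inside the gene as annotated.
Rpl15: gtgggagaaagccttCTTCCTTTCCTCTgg
Rpl35: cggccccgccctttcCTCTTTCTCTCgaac
Rps6: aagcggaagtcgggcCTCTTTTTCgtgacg
Rpl38: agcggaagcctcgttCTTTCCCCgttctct
Rps18: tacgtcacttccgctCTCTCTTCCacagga
Rps15a: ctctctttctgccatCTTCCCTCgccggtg
Rps27: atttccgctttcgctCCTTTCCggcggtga
Rplp2: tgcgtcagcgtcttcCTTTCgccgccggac
These genes span the roles described below, from the phosphorylated protein Rps6 to the stalk protein Rplp2 and the large-subunit protein Rpl38.

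Within the same promoter entries, 4 short motifs were searched as exact letters on both strands. The ETS-type motif CCGGAAG was in 26 of 65 ribosomal protein promoters (40%) and in 17.4% of all 12804. The motif AAGATGG, a core of the YY1 site, was in 10 (15.4%) against 7.91%. The SP1-type motif GGGCGG was in 40 (61.5%) against 62.5%, and TATAAA was in 8 (12.3%) against 10.4%. The first and second motifs were thus more frequent in these promoters than over all entries, while the SP1-type and TATA letters occurred at shares near those of all entries. A match describes letters in a window and not a bound site. The 14 genes with an annotated start in a tract had a median log2 fold change (Smad4 Knockout over Control) of 0.01 and the 48 other tested genes with an entry had 0.03.

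Library depth ranged from 85649781 to 99845702 counts. The 5 epithelial marker genes summed to 8380 to 9305 CPM (counts scaled to library size) per library, whereas fibroblast markers summed to 1.10 to 3.58 CPM (Lum and Pdgfrb at 0), immune markers to 3.79 to 4.23 CPM (Cd3e and Cd79a at 0) and endothelial markers to 3.10 to 5.03 CPM. Markers of gastric surface and neck cells summed to 47.4 and 32.8 CPM in Control 1 and 2 and to 76.7 and 108 CPM in Smad4 Knockout 1 and 2. Tff1, Tff2 and Gkn1 held most of these sums. Muc6 went the other way, at 0.163 and 0.129 CPM in Control and 0 in both Smad4 Knockout libraries. For Muc5ac and Gkn2 the groups overlapped. Chief and parietal cell markers summed to 3.54 to 4.02 CPM, all of it Atp4a, the catalytic subunit of the parietal cell proton pump. Pgc, Cblif and Atp4b, the other markers of those cells, were at 0. Smad4 itself, the check of the labels, gave 94.5 and 103 CPM for Control but 54.4 and 52.9 CPM for Smad4 Knockout, lower in both libraries and not absent (adjusted p = 0.677, edgeR). The labels do not name the exons removed.

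The ribosomal protein genes held 6.25% to 7.11% of all protein-coding counts. By length-corrected abundance (TPM, which sums to the same total in every library), 56 of the 100 most abundant protein-coding genes and 73 of the top 200 were ribosomal protein genes. A total of 81 had a mean above 10 TPM, with a median over genes of 1449 TPM, and 62 reached 1000 TPM. The gene with the highest level was Rps2 (chr17:24718121-24721927), a small-subunit protein at the channel where messenger RNA enters, at 4766 and 4332 TPM in Control 1 and 2 and 4615 and 4291 TPM in Smad4 Knockout 1 and 2. Rplp0, the base of the acidic stalk that recruits translation factors, followed at 3891 and 3669 TPM in Control and 3974 and 3670 TPM in Smad4 Knockout. The small-subunit protein Rps12 was at 3357 and 2964 TPM against 3513 and 3453 TPM. Rpl41, one of the shortest proteins known in mammals, was at 3253 and 3113 TPM against 3351 and 3509 TPM. Rps18, a protein of the small-subunit head, was at 3029 and 2784 TPM against 3082 and 2905 TPM. Rps12 had both Smad4 Knockout libraries above both Control libraries in TPM, while in counts its groups overlapped, and the groups of Rps2, Rplp0 and Rps18 overlapped in TPM. For Rpl41 the TPM of both Smad4 Knockout libraries was also the higher, and its counts overlapped as well. The share of all genes set apart in TPM was not computed. The TPM scale itself was shifted: the median over all tested genes against Control 1 was 0.12 (Smad4 Knockout 1) and 0.03 (Smad4 Knockout 2) on the log2 scale. Against Control 2 it was 0.04 and -0.06.

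The low end of the expressed set held Rps15a at 167 and 151 TPM in Control and 179 and 164 TPM in Smad4 Knockout, and Rpl22 at 203 and 181 against 199 and 197 TPM. Rpl7l1, a factor related to Rpl7, was at 203 and 181 TPM against 211 and 193 TPM, and Rps20 was at 259 and 235 TPM against 270 and 248 TPM. In counts these genes were not rare: Rps15a averaged 508 CPM and Rps20 529 CPM in the Control libraries. TPM divides a count by transcript length, and Rps15a had 7.0 times, Rps20 4.69 times and Rpl22 3.0 times as many counts per TPM as the median ribosomal protein gene. Their low rank by TPM thus carries the length assigned to them in the authors' processing. Rpl32l had 28, 29, 19 and 47 counts in Control 1, Control 2, Smad4 Knockout 1 and Smad4 Knockout 2, the lowest level among the genes tested.

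Another 3 genes were too low to test, and all are copies with a known tissue restriction. Rpl10l and Rpl39l, both known from male germ cells, had 0 counts in each library, which allows at most 3 counts. Rpl3l, a heart and skeletal muscle form of Rpl3, had 4 counts in Smad4 Knockout 1 and 0 elsewhere. The broadly expressed partners Rpl10, Rpl39 and Rpl3 were at 946 to 1065, 264 to 296 and 1252 to 1508 CPM. Of the 85 genes, 82 therefore entered the test, 50 of the large and 32 of the small subunit.

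**Figure D1:**
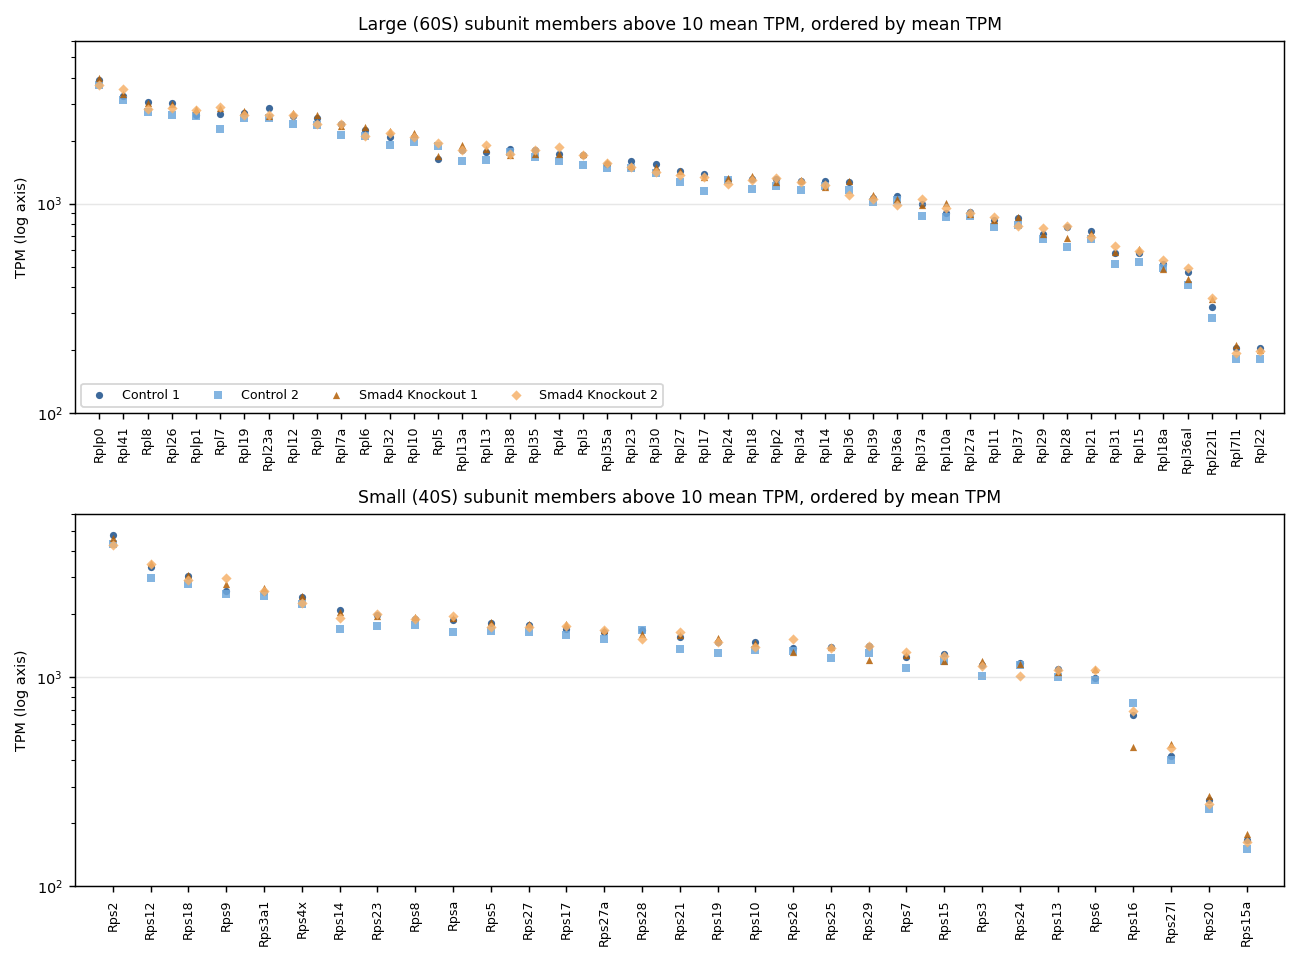
TPM of 80 ribosomal protein genes above 10 TPM, ordered by mean level on a log axis, with 1 point per library and gene. The points of the 4 libraries lie close together at each gene, while the mean level runs from 165 TPM for Rps15a to 4501 TPM for Rps2.

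The order of genes was nearly the same in every library: Spearman's rho of TPM across the 81 genes lay between 0.985 and 0.994 for the 6 library pairs (a description across genes, which are not independent replicates). The summed TPM of large-subunit genes was 1.44 times that of small-subunit genes in Control 1 and 1.45 times in each of the other libraries. The balance of the subunits was thus alike in all 4 libraries.

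The study compared organoids with and without Smad4. No ribosomal protein gene differed between the groups in the edgeR quasi-likelihood test, with 0 of 82 at an adjusted p below 0.05. Over all 18115 tested genes the share called was 0%, so a count of 0 says nothing particular about this family. At an unadjusted p below 0.05, 0 of the 82 genes passed, against 6.36% of all tested genes. DESeq2 also called 0 of the 82, with 127 calls over all genes. A missed threshold does not show equality, so the intervals are given: for 80 of 82 genes the 95% interval of the fold change lay within 1.5-fold in either direction, against 42.3% of all tested genes. The exceptions were Rps16 (-0.84 to 0.23 on the log2 scale) and Rpl32l (-1.70 to 2.18). Of the 82, 54 were above 0 and 28 below, with a median log2 fold change of 0.03 beside -0.0026 over all tested genes. Without Rpl32l, 80 of 81 genes lay within 0.2 of 0 on the log2 scale (54.6% of all tested genes) and 68 within 0.1 (32.9%). Their median standard error was 0.117, from 0.0948 to 0.218, against 0.20 over all tested genes, many of which have fewer counts. The shares of all tested genes given for the 1.5-fold, 0.2 and 0.1 limits carry that difference in counts too.

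**Figure D2:**
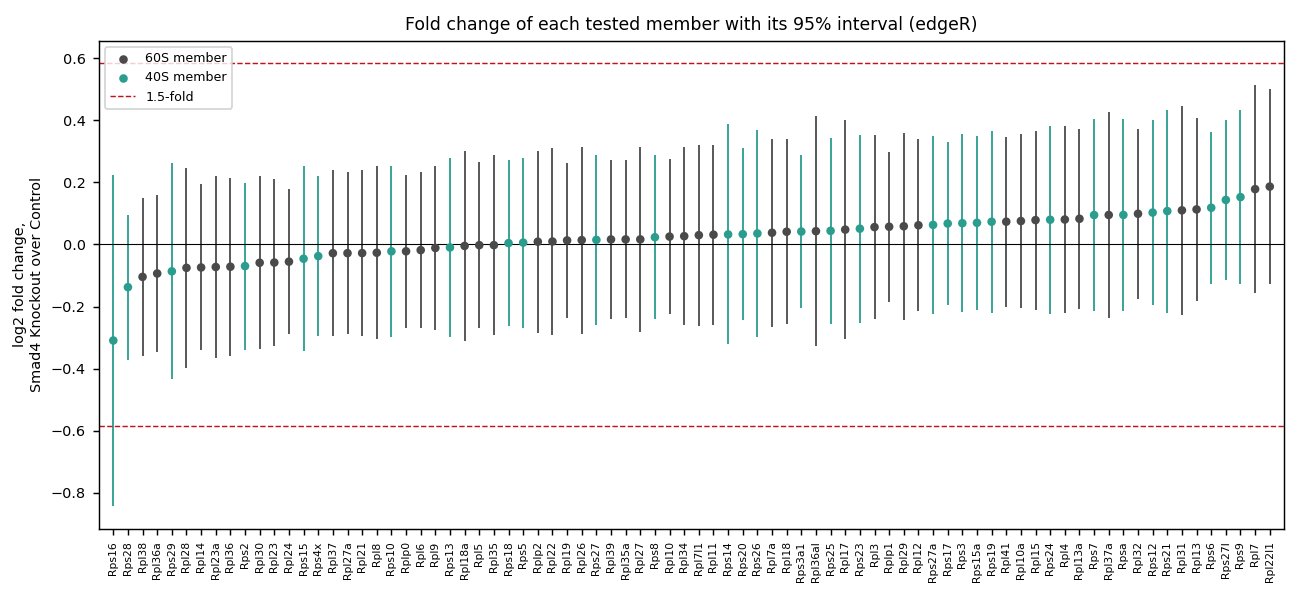
Log2 fold change of Smad4 Knockout over Control for 80 tested ribosomal protein genes, with 95% intervals from edgeR, ordered by value. Nearly all points lie within 0.2 of 0 and every interval spans 0, with Rps16 the lowest point at -0.31 and Rpl22l1 the highest at 0.19.

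Groups that do not overlap were few. Both Smad4 Knockout libraries were below both Control libraries in 4 of the 82 genes, Rps28, Rpl36a and Rpl24 among them, a pattern present in 18.6% of all tested genes. The opposite order was found in 2 genes (Rps6 and Rps27l), against 18.2% of all tested genes. The other 76 genes overlapped. Both shares were below those over all genes. Rpl24 was nearly tied, with Control 2 at 528.18 CPM and Smad4 Knockout 2 at 528.13 CPM, and its groups overlapped in TPM.

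Among the genes of smallest p on the lower side, Rps28, a small-subunit protein near the exit of the messenger RNA channel, measured 425 and 400 CPM in Control and 370 and 380 CPM in Smad4 Knockout (log2 fold change -0.14, adjusted p = 0.884, edgeR). Rpl38, a large-subunit protein known for its role in Hox messenger RNA translation in mouse embryos, was at 381 and 346 CPM versus 326 and 350 CPM, and its groups overlapped. Rpl36a, encoded on the X chromosome, was at 341 and 305 CPM versus 302 and 303 CPM (log2 fold change -0.09), where the second Control library almost met the Smad4 Knockout libraries. The remaining gene, Rps16, is described below with the libraries.

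On the higher side, Rpl22l1 (chr3:28805508-28807424), a close copy of the RNA-binding large-subunit protein Rpl22, was at 102 and 84.2 CPM in Control and 102 and 110 CPM in Smad4 Knockout. Its log2 fold change was 0.19 with a standard error of 0.128 (adjusted p = 0.884, edgeR), and Control 1 nearly equalled Smad4 Knockout 1. Rps27l, a copy of the zinc-binding protein Rps27, was at 139 and 125 CPM versus 144 and 149 CPM (log2 fold change 0.14). Rps6, the protein that S6 kinases phosphorylate downstream of mTOR, was at 885 and 812 CPM versus 891 and 951 CPM (log2 fold change 0.12, standard error 0.0999). In Rps27l and Rps6 the lower Smad4 Knockout library exceeded the higher Control library by less than the distance between the Control libraries. Rpl7 (chr1:16101295-16104433), a large-subunit protein, was at 1615 and 1275 CPM versus 1569 and 1701 CPM, and Rps9, which lines the messenger RNA entry channel, stood at 1170 and 1063 CPM versus 1151 and 1331 CPM. In these last 2 genes the groups overlapped. For the 9 genes described here, Rps16 included, the direction was the same under each alternative and with each library left out in turn. The size depended on the library left out. Without Control 1 and without Control 2, the log2 fold change was 0.33 and 0.05 for Rpl22l1, 0.36 and 0.02 for Rpl7, 0.22 and 0.07 for Rps27l and 0.18 and 0.06 for Rps6. On the lower side it was -0.09 and -0.18 for Rps28, -0.03 and -0.17 for Rpl38 and -0.01 and -0.17 for Rpl36a. Leaving out Smad4 Knockout 1 gave 0.25 for Rps9, and leaving out Smad4 Knockout 2 gave 0.06.

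By role, the groups of genes stayed near the family median and 0 members of each were called. The acidic stalk has 3 members that contact elongation factors. Rplp0 had a log2 fold change of -0.02, Rplp1 0.06 and Rplp2 0.01. The 5S particle, in which Rpl5 and Rpl11 bind the 5S ribosomal RNA and which can hold back the p53 inhibitor Mdm2, had -0.0023 and 0.03. Rpl5 was at 1854 and 1588 CPM in Control and 1735 and 1701 CPM in Smad4 Knockout, and Rpl11 was at 575 and 495 CPM versus 518 and 575 CPM, so both overlapped. The 6 genes around the exit tunnel, through which the new protein leaves, had a median of 0.01, from -0.07 for Rpl23a to 0.08 for Rpl4. The 4 genes listed near the decoding centre and entry channel had a median of 0.00. They were Rps2 at -0.07, Rps15 at -0.05, Rps23 at 0.05 and Rps3 at 0.07. Rps9, described above at the entry channel, was not in that list and had 0.15. Rps27a, made as a fusion with ubiquitin, was at 791 and 675 CPM versus 732 and 799 CPM (log2 fold change 0.06).

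The 18 genes whose human forms are mutated in Diamond-Blackfan anaemia, a failure of red cell production, had a median log2 fold change of 0.02, with 13 above 0 and 5 below. Rps19, the gene most often mutated in that disease, was at 537 and 446 CPM in Control and 509 and 525 CPM in Smad4 Knockout. By subunit, the 50 large-subunit genes had a median of 0.02 (31 above 0, 19 below) and the 32 small-subunit genes 0.04 (23 above, 9 below). The 4 genes on the X chromosome (Rpl10, Rpl36a, Rpl39 and Rps4x) had a median of -0.01. Members were spread over 19 chromosomes, with 14 on chromosome 7.

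The larger pattern lay within the Control group. Ribosomal protein genes were lower in Control 2 than in Control 1 in 80 of 82 cases, against 52% of all tested genes, with a median difference of -0.22 on the log2 scale beside -0.02 over all tested genes. The exceptions were Rps16, 0.10 higher in Control 2, and Rpl32l, 0.13 higher on few counts. Control 2 was the lowest of the 4 libraries for 67 of the 82 genes, against 28.5% of all tested genes. The highest library was Control 1 for 57 genes and Smad4 Knockout 2 for 24. Smad4 Knockout 2 was above Smad4 Knockout 1 in 70 of 82 genes, against 50.3% of all tested genes, by a median of 0.08. The Smad4 Knockout libraries thus lay mostly between the Control libraries: against Control 1 their medians were -0.12 (Smad4 Knockout 1) and -0.04 (Smad4 Knockout 2), and against Control 2 they were 0.10 and 0.18. Large and small subunits moved alike, with a median Control 2 minus Control 1 difference of -0.22 in each. The median ratio of the highest to the lowest library was 1.18 for these genes, equal to the 1.18 of the 2293 tested genes averaging 100 CPM or more.

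**Figure D3:**
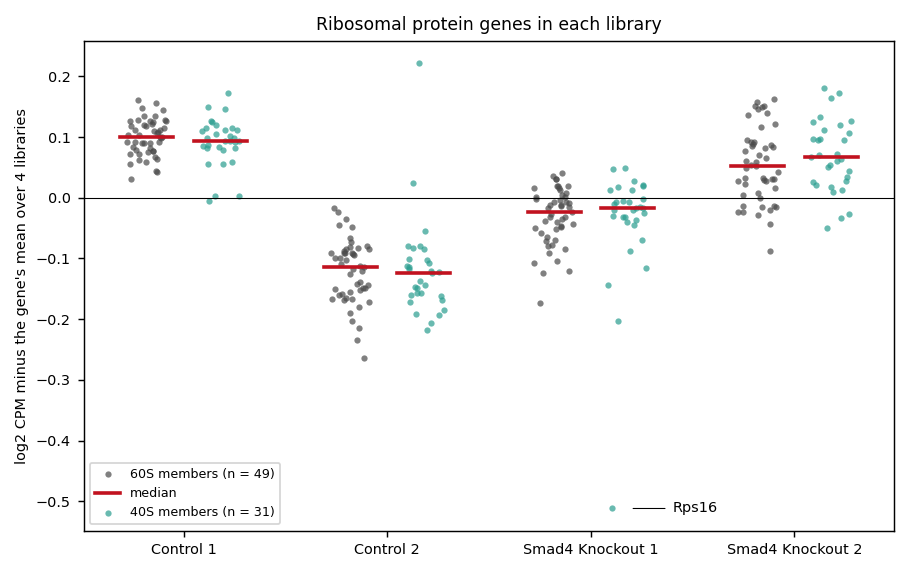
Log2 deviation of 80 tested ribosomal protein genes from each gene's mean over the 4 libraries, with 1 point per gene, split by subunit. Control 2 lies below 0 and Control 1 above 0 for most genes, with medians of -0.12 and 0.10, while the Smad4 Knockout medians are -0.02 and 0.06.

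The difference between the Control libraries was present under each scaling tried: Control 2 was below Control 1 in 80 of 82 genes with TMM factors, with median-ratio (RLE) factors, with factors computed without the ribosomal protein genes and with plain library totals, and in 78 of 82 in TPM. Smad4 Knockout 2 against Smad4 Knockout 1 depended on the scale, with 69 or 70 of 82 genes higher in CPM and 32 of 82 in TPM. In TPM the median over all tested genes itself was shifted by -0.09 between those libraries and by 0.12 between Smad4 Knockout 1 and Control 1. Beside these shifts the ribosomal protein medians in TPM were -0.02 and 0.01. The ribosomal protein median was thus above that of all genes in the first pair and below it in the second, as in CPM.

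Accordingly, the sign of the family's median fold change depended on which Control library was kept. It was 0.15 without Control 1, with 76 of 82 genes above 0, and -0.09 without Control 2, with 7 of 82 above 0. Without Smad4 Knockout 1 it was 0.06 and without Smad4 Knockout 2 it was 0.01. The summed share told the same: it was 7.11% and 6.25% of protein-coding counts in Control 1 and 2. The Smad4 Knockout libraries lay between, at 6.68% and 7.08%. The means were 6.68% ± 0.604 (SD, n = 2) and 6.88% ± 0.284 (SD, n = 2), a difference of 0.202 percentage points, smaller in size than the -0.855 points of Control 2 minus Control 1. The share was not tested, since the smallest two-sided p of an exact permutation test on 2 libraries a group is 0.33. In these libraries, mitochondrially encoded genes held 0.941%, 1.18%, 0.954% and 1.48% of all counts in the order Control 1, Control 2, Smad4 Knockout 1 and Smad4 Knockout 2, and annotated ribosomal RNA genes 0.242%, 0.389%, 0.243% and 0.562%. Control 2 and Smad4 Knockout 2 were thus high in both, and these were the lowest and the second highest libraries for the ribosomal protein share. Their part in the pattern was not tested.

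Rps16 (chr7:28350689-28352698), a small-subunit protein whose tail reaches the site of the peptidyl transfer RNA, departed from the family most in Smad4 Knockout 1. It also lacked the family's drop in Control 2, with a Control 2 minus Control 1 difference of 0.10 beside the family median of -0.22. It was at 260 and 278 CPM in Control and at 167 and 267 CPM in Smad4 Knockout, so Smad4 Knockout 1 was low and the other 3 libraries lay together. The ratio of its highest to lowest library was 1.66, where the next gene above the count floor, Rpl7, reached 1.33. The log2 fold change of -0.31 (standard error 0.218, adjusted p = 0.885, edgeR) became -0.01 without Smad4 Knockout 1 and -0.67 without Smad4 Knockout 2. A pseudogene row named after it, Rps16-ps2, was low in the same library, at 1027 and 1122 counts in Control and 569 and 1096 counts in Smad4 Knockout. Reads from a parent gene and its pseudogenes can be split by the counting step, and no label states how that step treated them. Over the family, 223 pseudogene rows carry the name of 56 of these genes and held 1.32% to 1.47% as many counts as the parents. Adding them left the family median at 0.03.

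Paralogue pairs allow a comparison within a library, since both genes share its depth and scaling. Of 4 pairs with both copies well expressed, Rpl22l1 was at 157.2% and 156.6% of Rpl22 in TPM in the Control libraries and at 176.5% and 179.8% in the Smad4 Knockout libraries. The means were 156.9% ± 0.402 (SD, n = 2) and 178.1% ± 2.32 (SD, n = 2), and the groups did not overlap. In counts, Rpl22l1 was at 35.4% and 35.2% of Rpl22 in Control and at 39.6% and 40.1% in Smad4 Knockout. The level of a TPM ratio thus carries the lengths assigned to both genes. Rps27l was at 23.8% and 24.7% of Rps27 against 26.5% in both Smad4 Knockout libraries, also without overlap. Rpl7l1 stood at 7.56% and 7.99% of Rpl7 in the Control pair and 7.35% and 6.66% in the Smad4 Knockout pair, lower in both. In counts Rpl7l1 was at 21.1% and 22.3% of Rpl7 in Control against 20.5% and 18.6% in Smad4 Knockout. Rpl36al was at 43.3% and 39.5% of Rpl36a against 41.2% and 50.01%, and here the groups overlapped. The copies of a pair are alike in sequence, and Rpl36a and Rpl36al most of all, so reads may have been split between them by the counting step. Non-overlap was common in such ratios: of all 3240 pairs among the 81 genes, 45.5% had a ratio that set the groups apart, so 3 of 4 pairs is not read as particular to paralogues. On the log2 scale of counts, the Rpl22l1 to Rpl22 ratio differed by 0.18 and the Rps27l to Rps27 ratio by 0.13 between the group means.

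**Figure D4:**
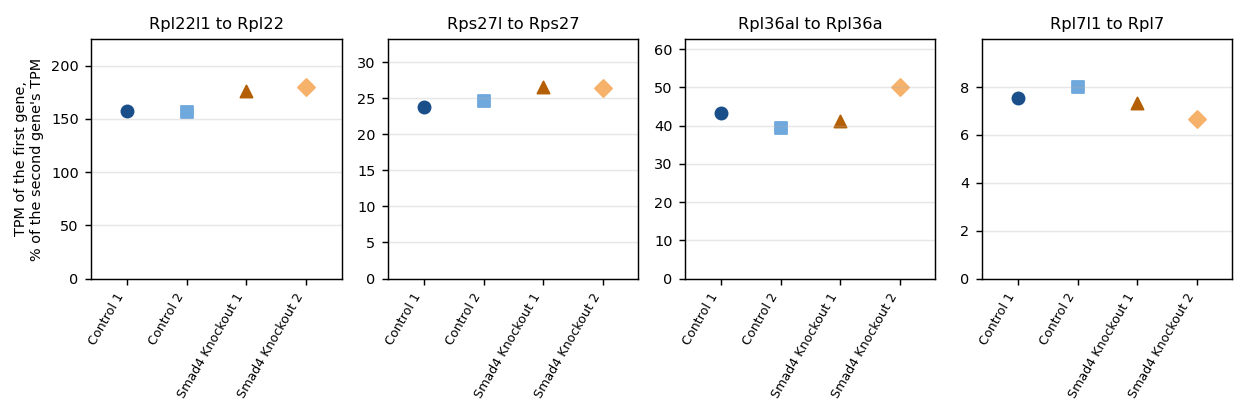
TPM of the paralogue as a percentage of its partner in each library, for the 4 pairs with both copies expressed. The 2 Smad4 Knockout points lie above the 2 Control points for Rpl22l1 to Rpl22 and Rps27l to Rps27, below them for Rpl7l1 to Rpl7, and among them for Rpl36al to Rpl36a.

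Genes that make or regulate ribosomes were compared as lists outside the family, and 0 members of any list were called between genotypes. Fau, a ribosomal protein made as a fusion to a ubiquitin-like protein, had 487 and 408 CPM in the Control pair and 421 and 437 CPM in the Smad4 Knockout pair. Rack1, a scaffold protein of the small subunit, had 2171 and 1873 CPM, then 1939 and 1967 CPM. In both genes Control 2 was the lowest library and Control 1 the highest. Of 17 translation factors and other genes whose messenger RNAs carry the tract, 8 were above 0 and 9 below (median -0.03), and 14 were lower in Control 2. Of 36 ribosome biogenesis factors, 15 were above and 21 below (median -0.02), and 28 were lower in Control 2. The 14 RNA polymerase I genes had 10 above and 4 below (median 0.03). The 78 mitochondrial ribosomal protein genes, which build a separate ribosome, had 40 above and 38 below (median 0.00), and 71 were lower in Control 2, with a median difference of -0.16. The difference between the Control libraries was thus not limited to cytosolic ribosomal protein genes. Nor was it limited to genes of translation: the 5 epithelial markers were lower in Control 2 in 5 of 5 cases (median difference -0.12). The 7 small nucleolar RNA host genes had a median of 0.02, and 7 of 7 were lower in Control 2.

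The 15 mTOR and MYC regulators ran the other way between the Control libraries, with 5 lower in Control 2 and a median difference of 0.13. Between genotypes 5 were above 0 and 10 below, with a median of -0.10. The list pools genes that activate and genes that restrain these pathways, so its median gives no direction of pathway activity. Mycn, a MYC family transcription factor, was at 6.90 and 6.77 CPM in Control and 4.28 and 3.79 CPM in Smad4 Knockout, a log2 fold change of -0.76 with a standard error of 0.196. It was the 1 gene of this list with an unadjusted p below 0.05, and its adjusted p was 0.677 (edgeR). Myc, at a higher level, was at 48.3 and 59.8 CPM versus 46.0 and 47.1 CPM. Both Smad4 Knockout libraries lay below both Control libraries in 4 of the 15 genes (Myc, Mycn, Rheb and Rps6kb1), beside 18.6% of all tested genes.

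**Figure D5:**
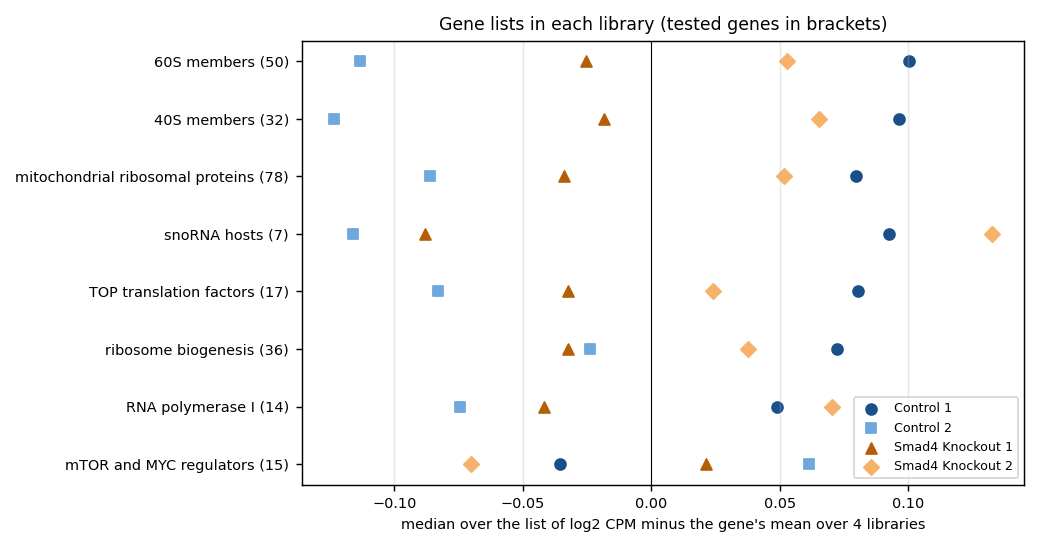
Median log2 deviation of each gene list from its genes' own means in the 4 libraries, with 1 point per library. Control 2 is the lowest point for the 60S (-0.11) and 40S (-0.12) ribosomal protein genes and for the mitochondrial ones (-0.09), and the highest for the mTOR and MYC regulators (0.06).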

How the data were processed

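Per the labels, 4 libraries were made from total RNA of mouse gastric organoids with a stranded, ribosomal RNA-depleting kit. The submitters' processing notes list HISAT2 2.1.0 and StringTie 2.1.3b on mm10, with bcl2fastq 2.20.0 and Trimmomatic, and leave the counting step and strand setting unstated. The authors deposited a read count and a TPM per gene. Those deposited counts, all whole numbers, were handled as estimated counts, and the TPM values are the authors' own. A total of 1 column holding another sample's values was not used, and 26 symbols turned into dates were restored from the gene ID. In the Control 2 file a digit is added to the title in the column names, and the columns were taken as that sample's. Replicate numbers follow the sample order and pair nothing.

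Counts were tested with edgeR 4.0.16 in R 4.3.3 (quasi-likelihood, TMM, filterByExpr with a minimum count of 10, genotype alone in the model), with p-values adjusted by Benjamini-Hochberg across 18115 genes and a threshold of 0.05, and the code was tested on simulated data. The common dispersion of 0.0680 equals a coefficient of variation of 26.1%. CPM use TMM-scaled library sizes. Standard errors are the fold change over the root of F. Alternatives were DESeq2 1.42.0, limma 3.58.1 on log2(TPM + 1) or log2(TPM + 0.1), other scalings, no filter, protein-coding rows only, added pseudogene rows and each library left out. The genes and lists were chosen with earlier results of these data known. Named are, by rule, the 5 genes per direction of smallest p, the 5 highest and 5 lowest by TPM and the untested genes. Also named by rule are paralogue pairs, role groups and up to 3 genes of smallest p per other list. Rpl24, Rps19, Rps6kb1, Muc5ac, Muc6, Gkn2 and the coordinates shown were added after values were seen. Some genes are not reported here by name. The 95% intervals of fold changes come from the edgeR fit and include the spread between libraries, and the floor for a count of 0 covers counting error only.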

Additional observations from a re-analysis of the deposited data

How the results depend on the processing

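No call of a ribosomal protein gene was made under any alternative: 0 were higher and 0 lower with each scaling, filter, tool and left-out library. Of the alternative values, 185 were labelled as unmoved against the spread between replicates or kept their side of the threshold. The 2 that moved further were the family median and the 40S median (0.16) without Control 1. With 2 libraries a group, the gap between them sets both this spread and the shift when 1 is left out. The count of 185 is therefore no measure of stability for left-out libraries. It includes Rps16 at -0.01 without Smad4 Knockout 1 and -0.67 without Smad4 Knockout 2. A total of 4 changed sign, all without Control 2: the medians of the family (-0.0889), the 40S (-0.07) and the 60S genes (-0.09) and the difference in share. Leaving out 1 library at a time gave a family median log2 fold change from -0.0889 to 0.149, with 7 to 76 of 82 genes above 0. The other alternatives gave medians from 0.03 to 0.06. The difference in share ran from -0.225 to 0.629 percentage points with a library left out. An unadjusted p below 0.05 was reached by 1 of these genes in limma on TPM (Rpl22l1). The share of all genes reaching it in limma was not computed, so this count is not read as a result on that gene. Over all genes, edgeR called 0, DESeq2 127, and edgeR without Smad4 Knockout 1 92. A group with 1 library left is assumed to vary like the other. No paired analysis was possible because the labels give the groups no shared replicate numbers. With 2 libraries a group, small shifts of these genes could not be told from the spread between lines.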

Other observations

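The count per TPM of a gene, taken relative to the median ribosomal protein gene, was nearly constant across libraries for most members but moved by over 5% in 4 of them. Rps24, a small-subunit protein with several known splice forms, had 1.56, 1.45, 1.58 and 1.90 in Control 1, Control 2, Smad4 Knockout 1 and Smad4 Knockout 2. In TPM its level was 1171, 1140, 1160 and 1012, lowest in Smad4 Knockout 2, while in CPM it was 859, 728, 789 and 888, highest there. Rpl5, the large-subunit partner of the 5S ribosomal RNA, had a ratio of 2.39, 1.92, 2.38 and 1.89. Its TPM of 1643, 1876, 1694 and 1945 was higher in Control 2 than in Control 1, where its CPM of 1854 and 1588 was lower. Rpl28 had a ratio of 0.745, 0.878, 0.754 and 0.743, high in Control 2 alone, and Rpl10a had 1.22, 1.16, 1.16 and 1.16. The order of the libraries differed between CPM and TPM in all 4 genes. Rpl28 was lowest in Smad4 Knockout 1 in CPM (221) and in Control 2 in TPM (624). Rpl10a was highest in Control 1 in CPM (519) and in Smad4 Knockout 1 in TPM (1002). A change of order was not particular to these genes, since Rpl10, with a steady ratio, was also highest in Control 1 in CPM and in Smad4 Knockout 1 in TPM. Transcript-level values were not analysed here.

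Across the 81 genes, Spearman's rho between mean TPM and the Control 2 minus Control 1 difference was 0.0272, and between mean TPM and the genotype log2 fold change 0.000881. With count per TPM, rho was -0.214 and 0.149. These are descriptions across genes that share libraries, given without a test.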
